A study of Mus musculus with 47 samples.

Results

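The expression of 7 genes of basal cell adhesion and identity was followed in sorted mouse mammary epithelium: the transcription factor gene Trp63, the hemidesmosome genes Col17a1, Itga6 and Itgb4, the laminin chain genes Lama3 and Lamb3, and the matrix glycoprotein gene Sparc. The genes were chosen by symbol, whatever its case (TRP63, COL17A1, ITGA6, ITGB4, LAMA3, LAMB3 and SPARC), and all 7 were found among the 21980 genes of the deposited table. All mice were FVB and had been ovariectomized, and every treatment lasted 14 days. The mice received estradiol and progesterone with telapristone acetate (EP+TPA), estradiol and progesterone with mifepristone (EP+RU486), estradiol and progesterone alone (EP) or sham treatment. Doses are not given in the sources used here. Luminal mature cells (LM), luminal progenitors (LP) and cells labelled mammary stem cells (MSC) were sorted by flow cytometry, and 47 polyadenylated RNA libraries came from 20 mice. Each fraction had 4 mice per treatment, except that LM had 3 with EP. All hormone-treated animals lacked ovaries, as did the sham animals, and no group received estradiol alone or an antagonist alone.

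In the mammary gland a layer of basal, contractile cells lies between the luminal cells and the basement membrane. Trp63 encodes p63, a relative of p53 that specifies basal and stem cells of stratified and glandular epithelia. Basal cells are anchored by hemidesmosomes, in which the integrin pair of the alpha 6 chain (Itga6) and beta 4 chain (Itgb4), with collagen XVII (Col17a1), a transmembrane collagen, binds a laminin of the basement membrane. Lama3 and Lamb3 encode the alpha 3 and beta 3 chains of that laminin. Sparc encodes a secreted protein that binds collagen and calcium and is made by mesenchymal and endothelial as well as basal cells. Both telapristone and mifepristone are steroids that block the progesterone receptor.

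Promoter sequences are shown for 3 members because the treatments act through steroid receptors, of which the progesterone receptor can bind the core element TGTTCT. RefSeq promoters, 250 bases before to 50 after a start on GRCm38.p6, were printed for Col17a1 (chr19:47691993-47692292, minus strand), the downstream start of Lamb3 (chr1:193301993-193302292, plus strand) and Sparc (chr11:55420031-55420330, minus strand). The values below were made on another build, mm9, so the coordinates serve only to place these sequences. Capitals mark TGTTCT on either strand.
Col17a1: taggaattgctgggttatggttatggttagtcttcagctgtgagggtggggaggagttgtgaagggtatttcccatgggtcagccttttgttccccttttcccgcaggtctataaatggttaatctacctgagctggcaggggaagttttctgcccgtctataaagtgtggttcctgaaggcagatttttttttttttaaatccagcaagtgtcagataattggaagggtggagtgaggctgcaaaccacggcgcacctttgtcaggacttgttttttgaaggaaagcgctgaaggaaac
Lamb3: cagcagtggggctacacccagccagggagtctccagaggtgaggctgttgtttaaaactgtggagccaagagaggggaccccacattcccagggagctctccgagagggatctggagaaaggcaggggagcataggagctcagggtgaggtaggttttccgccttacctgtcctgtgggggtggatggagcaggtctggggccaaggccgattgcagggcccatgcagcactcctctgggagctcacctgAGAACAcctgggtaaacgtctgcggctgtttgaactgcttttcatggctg
Sparc: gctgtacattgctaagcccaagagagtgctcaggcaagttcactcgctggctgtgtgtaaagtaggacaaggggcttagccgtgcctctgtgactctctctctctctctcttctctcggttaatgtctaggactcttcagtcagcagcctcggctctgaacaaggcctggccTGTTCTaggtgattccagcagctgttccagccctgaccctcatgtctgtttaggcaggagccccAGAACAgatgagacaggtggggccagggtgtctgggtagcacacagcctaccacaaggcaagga
The Sparc window held 2 such letter matches, beginning 78 and 14 bases before the start, the Lamb3 window 1 match at base 1 after the start, and the Col17a1 window 0. The window of the upstream Lamb3 start, not printed, held 0 such matches and 5 of the p53 family pattern described next. Of 32851 RefSeq windows of this length 19.0% held at least 1 match and 2.54% at least 2. The estrogen receptor element AGGTCA (16.3% of windows) and the AP-1 element TGANTCA (7.81%) were in none of the 3. The p53 family pattern of paired CNNG boxes, which 70.2% of windows held, occurred 1 time in Col17a1, 3 times in Lamb3 and 4 times in Sparc, where copies overlapped. Col17a1 had 2 matches to TATAAA (13.6% of windows), at 140 and 91 bases before the start. Such matches describe letters and not bound sites.

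Values have the scale of FPKM, fragments scaled for transcript length and depth, and the read number behind them is unknown. The authors had adjusted each gene within 3 sets of libraries, which adds a gene-specific constant to all values of a set: the 15 LM libraries, the 16 LP libraries with the MSC libraries of mice 305, 306, 308, 322, 323 and 324, and the other 10 MSC libraries. Levels were therefore not compared between LM and the other fractions, and MSC was set against LP only in those 6 mice. Values by library are given as deposited. Folds are differences of mean log2(value + 1) after libraries were rescaled within a set. Limma with Benjamini-Hochberg adjustment over all genes tested gave the p values, and an adjusted p under 0.05 was taken as a change. Replicates were separate mice, in bulk samples in which fewer cells of a type and less RNA per cell cannot be told apart.

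With EP against sham, Trp63 rose and Lama3 fell in LM, and Lama3 fell in LP. Trp63 was higher with EP in LP too, but it entered that test only through 3 EP libraries that reached a value of 1, so its call there supports nothing. In LM 19.8% of 11933 genes passed the test in either direction (10.3% higher, 9.52% lower), and in LP 32.7% of 11612 (17.3% and 15.4%), so 2 of 7 in LM, and in LP 1 of 7 lower beside Trp63, lay near or under these shares. Without rescaling, higher genes made up 68.8% of the calls in LM, against 52.0% with it, and 80.6% in LP, against 53%. The median log2 fold of all genes was then 0.14 in LM and 0.25 in LP, against -0.02 and 0.02 with rescaling. Lama3 in both fractions and Trp63 in LM kept direction and call. Among the comparisons with an antagonist, higher genes made up 30.3% of calls without rescaling, against 51.3% with it, for EP+RU486 minus EP in LM, 19.9% against 40.8% for EP+TPA minus EP and 26.9% against 43.3% for EP+RU486 minus EP in LP, and 64.6% against 37.4% for EP+TPA minus sham and 75.4% against 45% for EP+RU486 minus sham in LP. The comparisons of EP with sham and of an antagonist with EP share the EP mice.

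**Figure D1:**
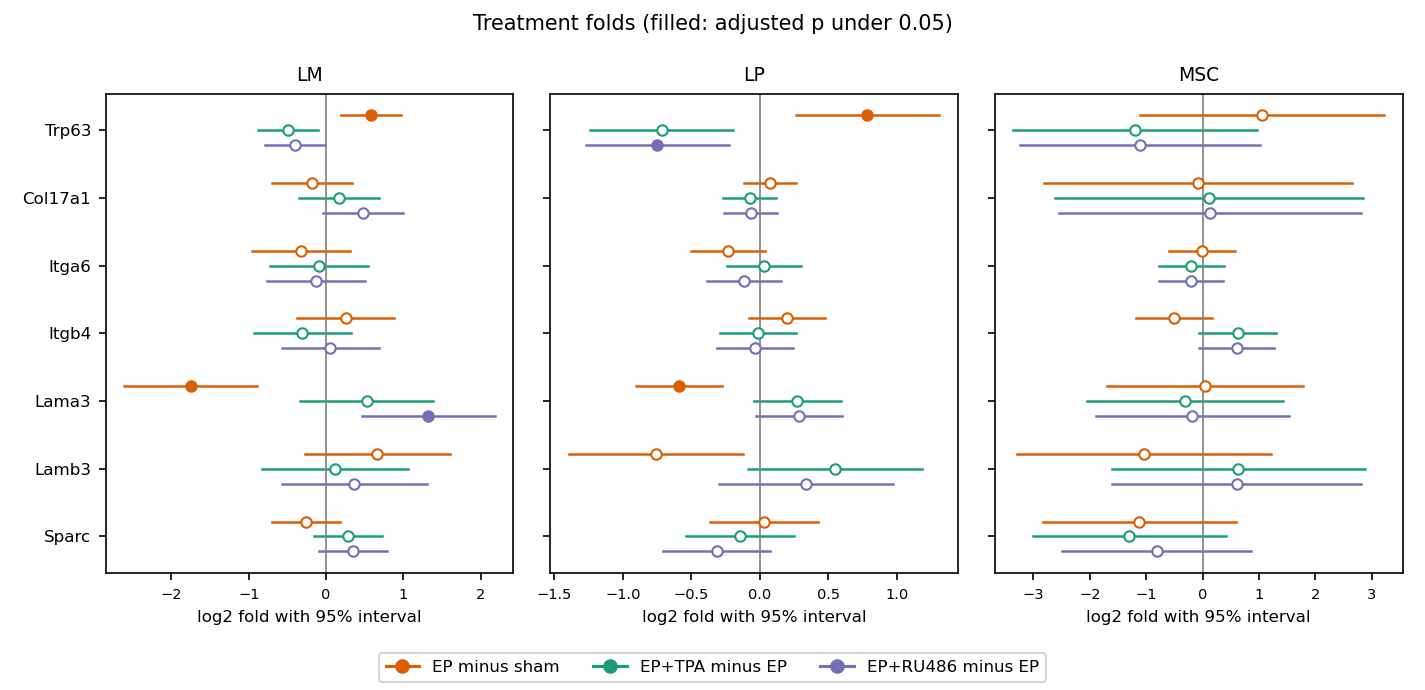
Log2 folds (x axis) with 95% intervals of the 7 genes (y axis) for EP minus sham, EP+TPA minus EP and EP+RU486 minus EP in LM, LP and MSC; filled points had an adjusted p under 0.05 in limma. Trp63 and Lama3 hold all 6 filled points. In LM they lie at 0.58 and -1.75 (EP minus sham) and 1.32 (EP+RU486 minus EP). In LP they lie at 0.79 and -0.59 (EP minus sham) and -0.75 (EP+RU486 minus EP). Those of Trp63 in LP are a description, because the gene entered that test only through EP libraries.

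Trp63 in LM had deposited values of 3.78, 3.27, 3.66 and 2.92 in the EP+TPA mice, 2.92, 3.03, 4.01 and 4.16 in the EP+RU486 mice, 6.15, 6.05 and 5.18 in the EP mice and 2.98, 3.03, 3.02 and 2.99 in the sham mice. As deposited, all 3 EP libraries stood above all 12 others, and the sham libraries lay close together near the lowest value of the set, 2.92. Above that lowest value, EP libraries ran from 2.26 to 3.23 and sham libraries from 0.0649 to 0.117. After rescaling, EP mouse 327 (4.17) fell below EP+RU486 mouse 333 (4.58), while all 3 EP libraries stayed above the sham libraries (3.52 or lower). EP exceeded sham by a log2 fold of 0.58 (SE 0.18, adjusted p 0.0346). The constant in the values compresses this fold: with the lowest value subtracted the fold was 1.70 (adjusted p 6.04e-06). The call was lost when sham mouse 305, 310 or 326 or EP mouse 306 or 311 was left out, with adjusted p of 0.0581 to 0.112 and log2 folds of 0.47 to 0.59, and with only these 2 groups in the fit (0.0657).

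The EP+TPA and EP+RU486 groups had Trp63 means of 3.41 ± 0.391 and 3.53 ± 0.644 (SD, n = 4 each), against 5.79 ± 0.532 with EP (n = 3). The log2 folds against EP were -0.49 (SE 0.18, adjusted p 0.124) and -0.40 (SE 0.18, adjusted p 0.132), both short of the threshold. In EP+TPA minus EP 0 of the 7 genes passed, against 4.62% of all genes, and 1 had an unadjusted p under 0.05. Both Trp63 folds passed without rescaling (adjusted p 0.0495 and 0.0313) and with the lowest value subtracted (0.00244 and 0.00243). Against sham, the log2 folds were 0.09 (SE 0.17) with EP+TPA and 0.18 (SE 0.17) with EP+RU486, with adjusted p of 0.752 and 0.471.

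In LP, Trp63 stood at 0.909, 0.765, 0.756 and 0.781 with EP+TPA, at 0.673, 0.819, 0.739 and 0.835 with EP+RU486, at 2.43, 0.940, 1.25 and 6.0 with EP and at 0.728, 0.702, 0.723 and 0.673 in sham. Every EP library was above every other LP library, but the EP mice differed widely among themselves, with mouse 327 highest and mouse 311 close to the other groups. The gene was tested only because 3 EP libraries (mice 306, 322 and 327) reached a value of 1, so it had to differ, and the fits are given as a description. EP minus sham was 0.79 on the log2 scale (SE 0.25, adjusted p 0.023), or 0.106 with only these 2 groups in the fit. EP+RU486 minus EP was -0.75 (SE 0.25, adjusted p 0.0416), and EP+TPA minus EP gave -0.72 (SE 0.25, adjusted p 0.0548). In these comparisons 1 (Trp63) and 0 of the 7 genes passed, against 21.1% (9.15% higher, 12% lower) and 18.4% of all genes, and in the second of them 1 had an unadjusted p under 0.05. The EP+RU486 call was lost without any 1 of 11 mice, with adjusted p of 0.0506 to 0.0847, and the EP+TPA fold passed without EP mouse 311 (0.00732). When EP mouse 306, 322 or 327 was left out the gene was no longer tested.

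Markers of basal and other cells were set beside Trp63. In LM, none of the 8 myoepithelial contractile markers passed between EP and sham. Their summed values were 706 to 811 with EP and 709 to 717 in sham, with 0 of the 8 listed at 0. Most of each sum was the constant in the values. With each marker's lowest value in the set subtracted, the sums were 14.2 to 120 with EP and 17.2 to 25.7 in sham. In LP the sums were 161 to 167 with EP+TPA, 160 to 179 with EP+RU486, 176 to 208 with EP and 158 to 169 in sham. Again 0 of 8 passed the test and 0 were listed at 0. Above the lowest values, the LP sums were 7.45 to 13.4 with EP+TPA and 6.99 to 25.8 with EP+RU486. They were 22.7 to 54.9 with EP and 4.54 to 15.8 in sham, so EP did not overlap sham. The basal keratin gene Krt14, singled out after its values were seen, stood at 97.5, 77.4, 107 and 81.2 in LP of EP mice 306, 311, 322 and 327, and at 75.9 to 76.3 in sham, as deposited. The contractile gene Acta2 and the basal keratin gene Krt5 were also named after their values were seen. Acta2 stood at 71.2, 63.7, 67.1 and 87.3 in these EP mice and at 61.2 to 62.1 in sham. Krt5 stood at 11.3, 10.2, 11.1 and 12.7, and at 10.2 to 10.4 in sham. Acta2 and Krt5 ranked these EP mice as Trp63 did, and Krt14 did not. After rescaling Krt14 in LP ran from 63.1 to 85.7 with EP and from 69.5 to 78.1 in sham, so the groups overlapped. Rescaled Acta2 overlapped too (52.0 to 72.2 and 56.4 to 63.7). No lowest value was shared for these genes, so the rescaling changed their constants as well. Above the lowest value, Krt14 was 1.53 to 31.1 with EP and 0.0604 to 0.468 in sham. Acta2 was 2.53 to 26.2 and 0.0606 to 0.970, also without overlap, whereas Krt5 overlapped (0.0440 to 2.50 and 0.0 to 0.239). In LM deposited Krt14 ran from 257 to 352 with EP and from 255 to 267 in sham. Fibroblast markers moved with EP in LP: Col6a3 and Dcn rose among the 8 of 9 tested (log2 folds of 1.19 and 1.81, adjusted p 0.00213 and 0.0129). Their summed values were 22.4 to 106 with EP+TPA, 21.6 to 60.0 with EP+RU486, 141 to 273 with EP and 31.6 to 157 in sham, and no marker was listed at 0. EP mouse 327, the highest for Trp63, also had the highest LP sums of fibroblast (273) and endothelial (543) markers. It had the highest deposited LP values of Acta2 (87.3) and Krt5 (12.7) as well. The part of these cells in the Trp63 result was not tested.

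**Figure D2:**
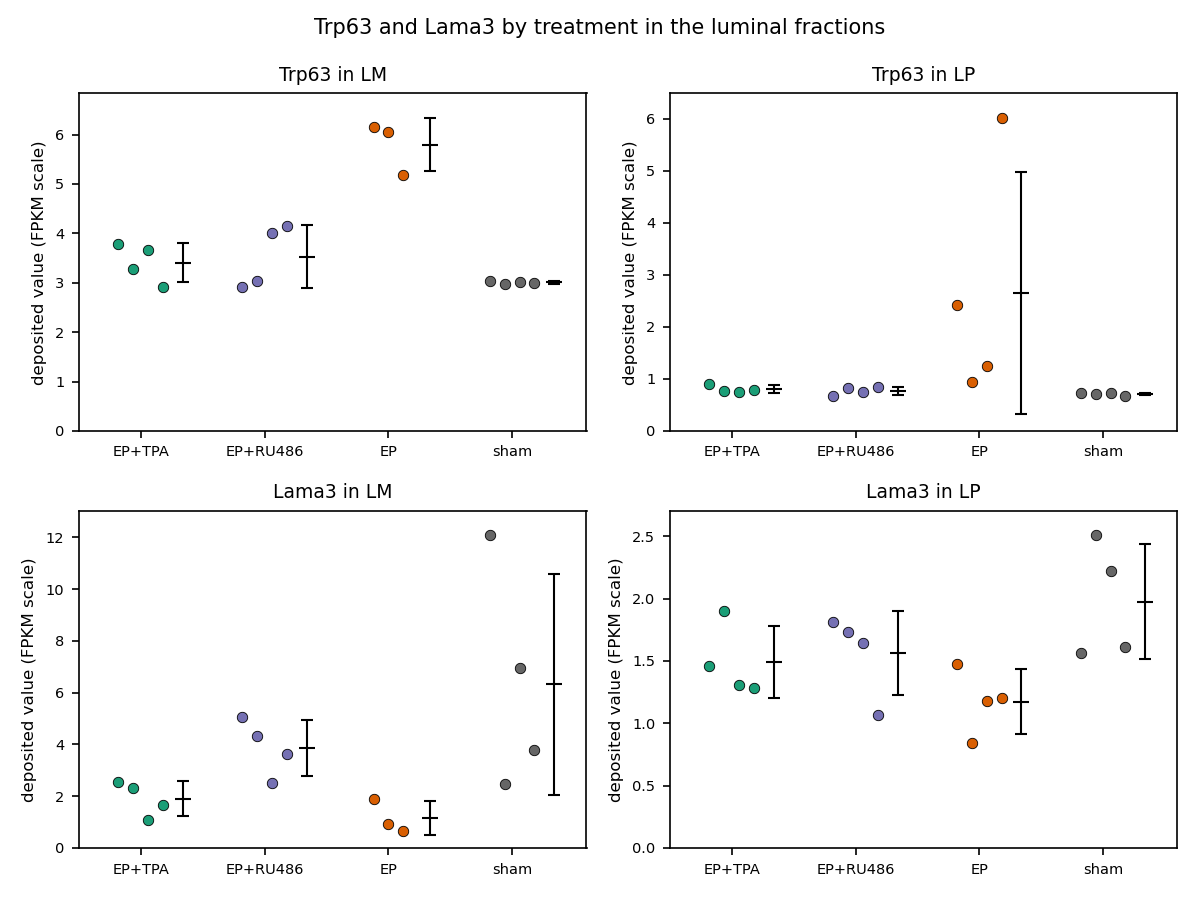
Deposited values on the FPKM scale (y axis) of Trp63 and Lama3 in LM and LP by treatment (x axis); points are mice and the bar beside each group is its mean with SD. Trp63 in LM lies between 5.18 and 6.15 with EP and at 4.16 or lower elsewhere, while Lama3 in LM lies at 1.89 or lower with EP and at 2.49 or higher in sham.

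Lama3, the alpha 3 laminin chain, moved the other way. In LM it stood at 2.56, 2.31, 1.09 and 1.64 with EP+TPA, at 5.06, 4.31, 2.49 and 3.64 with EP+RU486, at 1.89, 0.912 and 0.653 with EP and at 2.49, 12.1, 6.95 and 3.77 in sham. The EP group overlapped neither sham nor EP+RU486, whereas EP+TPA overlapped EP, and EP+RU486 and EP+TPA both overlapped sham. EP lay below sham by a log2 fold of -1.75 (SE 0.40, adjusted p 0.00825), with 0.0524 when EP mouse 327 was left out. EP+RU486 rose above EP by 1.32 (SE 0.40, adjusted p 0.0341), 1 of 7 genes against 18.6% of all genes in either direction (9.53% higher, 9.04% lower). EP+TPA minus EP was 0.52 (SE 0.40, adjusted p 0.468). EP+TPA fell below sham by 1.23 (SE 0.37, adjusted p 0.0363), 1 of 7 genes against 16.2% of all (6.63% higher, 9.53% lower), and EP+RU486 minus sham was -0.43 (SE 0.37, adjusted p 0.441), with 0 of 7 genes past the test against 21.8% (1 at an unadjusted p under 0.05).

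These Lama3 calls in LM differed in how far they held. Leaving out a mouse kept EP minus sham in 14 of 15 fits, EP+RU486 minus EP in 10 of 15 and EP+TPA minus sham in 11 of 15. EP+RU486 minus EP was lost without EP+RU486 mouse 308, 313 or 333 or EP mouse 311 or 327 (adjusted p 0.0675 to 0.125), and EP+TPA minus sham without sham mouse 301 or 310 or EP+TPA mouse 332 or 336 (0.0723 to 0.101). Luminal markers also differed between the LM groups: their summed values were 2854 to 8471 with EP+TPA, 1359 to 3001 with EP+RU486, 3931 to 9328 with EP and 7121 to 9374 in sham. Of 14 luminal markers, 2 fell with EP against sham, 6 fell with EP+RU486 against EP, 5 fell and 1 rose with EP+TPA against sham, and 10 fell and 1 rose with EP+RU486 against sham. Their part in the Lama3 result was not tested.

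In LP, Lama3 was lower with EP in every mouse than in any sham mouse. The values were 1.46, 1.90, 1.31 and 1.29 with EP+TPA, 1.81, 1.73, 1.65 and 1.07 with EP+RU486, 1.48, 0.841, 1.18 and 1.2 with EP and 1.56, 2.51, 2.22 and 1.61 in sham. Both antagonist groups overlapped both others. EP fell below sham by 0.59 on the log2 scale (SE 0.15, adjusted p 0.00636), and this call held in all 23 alternative fits, with adjusted p up to 0.0241. Folds against EP were 0.27 with EP+TPA (SE 0.15, adjusted p 0.232) and 0.28 with EP+RU486 (SE 0.15, adjusted p 0.195). Against sham they were -0.32 (SE 0.15, adjusted p 0.261) and -0.31 (SE 0.15, adjusted p 0.207). With EP+TPA 0 of the 7 genes passed against sham (1 at an unadjusted p under 0.05), where 5.31% of all genes did, and with EP+RU486 0 of 7 (1 unadjusted), where 10.9% did.

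Lamb3, the beta 3 chain of the same laminin, did not pass in any treatment comparison. LM values were 20.6, 35.3, 27.9 and 16 with EP+TPA, 20.5, 26.9, 28.3 and 35.2 with EP+RU486, 43.5, 12.2 and 27.6 with EP and 9.05, 31.4, 10.5 and 9.24 in sham. Only sham mouse 301 reached the other groups; the other 3 sham libraries lay below all 11 hormone-treated libraries. Log2 folds against sham were 0.78 with EP+TPA (SE 0.41, adjusted p 0.214), 1.03 with EP+RU486 (SE 0.41, adjusted p 0.086) and 0.66 with EP (SE 0.44, adjusted p 0.315). Without sham mouse 301 all 3 passed, at 1.23 (adjusted p 0.014), 1.49 (0.0042) and 1.12 (0.0347).

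Lamb3 in LP had the opposite sign with EP, though also short of the threshold. It stood at 21.9, 19.2, 29.7 and 11.9 with EP+TPA, at 15.1, 18.6, 11.6 and 27.9 with EP+RU486, at 25.2, 15.2, 12.7 and 9.42 with EP and at 31.9, 18.6, 17.5 and 19.2 in sham. All groups overlapped. EP minus sham was -0.76 (SE 0.30, adjusted p 0.0637), and it passed without EP mouse 306 (-0.99, adjusted p 0.022) and without EP+TPA mouse 336 (0.0457). Sizes of folds in LM and LP were not compared, because the constants in the values differ between them.

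The integrin and collagen genes of the hemidesmosome did not pass in the luminal fractions. Itga6 in LM stood at 21.5, 22.0, 30.8 and 28.7 with EP+TPA, at 28.0, 23.9, 20.7 and 22.4 with EP+RU486, at 29.1, 26.6 and 36.2 with EP and at 15.4, 39.4, 46.6 and 41.1 in sham. Sham mouse 305 was the lowest of all 15 libraries, and the other 3 sham mice were the highest. The log2 folds against sham were -0.41 with EP+TPA, -0.45 with EP+RU486 and -0.32 with EP (SE 0.28, 0.28 and 0.30, adjusted p 0.333, 0.262 and 0.491). Without sham mouse 305 all 3 passed, at -0.79 (adjusted p 0.00601), -0.83 (0.00333) and -0.70 (0.015). In LP Itga6 ran from 17.0 to 23.9 with EP+TPA, from 16.6 to 22.9 with EP+RU486, from 20.2 to 27.4 with EP and from 21.1 to 25.7 in sham, with all groups overlapping. Log2 folds of Itga6 in LP lay between -0.35 and 0.15 in the 6 comparisons.

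Itgb4, its partner chain, ran in LM from 9.17 to 14.8 with EP+TPA, from 12.5 to 18.8 with EP+RU486, from 15.1 to 23.5 with EP and from 8.06 to 15.9 in sham. Its log2 fold with EP against sham was 0.25 (SE 0.29, adjusted p 0.587). In LP it stood at 16.5, 12.3, 15.7 and 11.2 with EP+TPA, at 15.3, 14.3, 13.3 and 13.2 with EP+RU486, at 16.8, 12.8, 15.1 and 18.3 with EP and at 10.7, 10.3, 12.5 and 10.8 in sham. As deposited, every LP library of EP and of EP+RU486 lay above every sham library, and EP+TPA overlapped sham. After rescaling the fold of EP against sham was 0.20 (SE 0.13, adjusted p 0.261), whereas it was 0.46 (adjusted p 0.011) without rescaling, 0.36 (0.0277) with each gene's lowest value used as the constant and 1.34 (0.00985) with that value subtracted.

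As deposited, Col17a1 varied little in the luminal libraries, most of which lay near the lowest value of their set. LM values lay between 7.45 and 8.11 in 14 of 15 libraries, and EP+RU486 mouse 333 alone had 16.7. That library also had the highest LM sum of myoepithelial markers, 1183, against 706 to 811 in the other 14, and the highest LM values of Krt5 (78.8), Krt14 (495) and Acta2 (504), markers named after their values were seen. In LP, Col17a1 lay between 2.17 and 2.41 in 15 of 16 libraries and at 3.02 in EP mouse 327. Above the lowest value, LP ran from 0.0412 to 0.853 with EP and from 0.0254 to 0.0996 in sham, so the groups overlapped. In LM it ran from 0.0159 to 0.495 with EP and from 0.0 to 0.297 in sham. Deposited values this close to the constant say little about how the gene varied. Its log2 folds with EP against sham were -0.18 (SE 0.24, adjusted p 0.64) in LM and 0.07 (SE 0.09, adjusted p 0.577) in LP.

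Sparc ran in LM from 193 to 301 with EP+TPA, from 209 to 255 with EP+RU486, from 203 to 239 with EP and from 195 to 262 in sham. The 4 LM groups overlapped, and the log2 fold of EP against sham was -0.26 (SE 0.21, adjusted p 0.411). In LP it ran from 73.6 to 88.5 with EP+TPA, from 72.3 to 82.1 with EP+RU486, from 78.6 to 167 with EP and from 74.3 to 96.3 in sham. The 167 was again EP mouse 327, and the other 15 LP libraries lay at 102 or lower. EP minus sham was 0.03 in LP (SE 0.18, adjusted p 0.925).

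**Figure D3:**
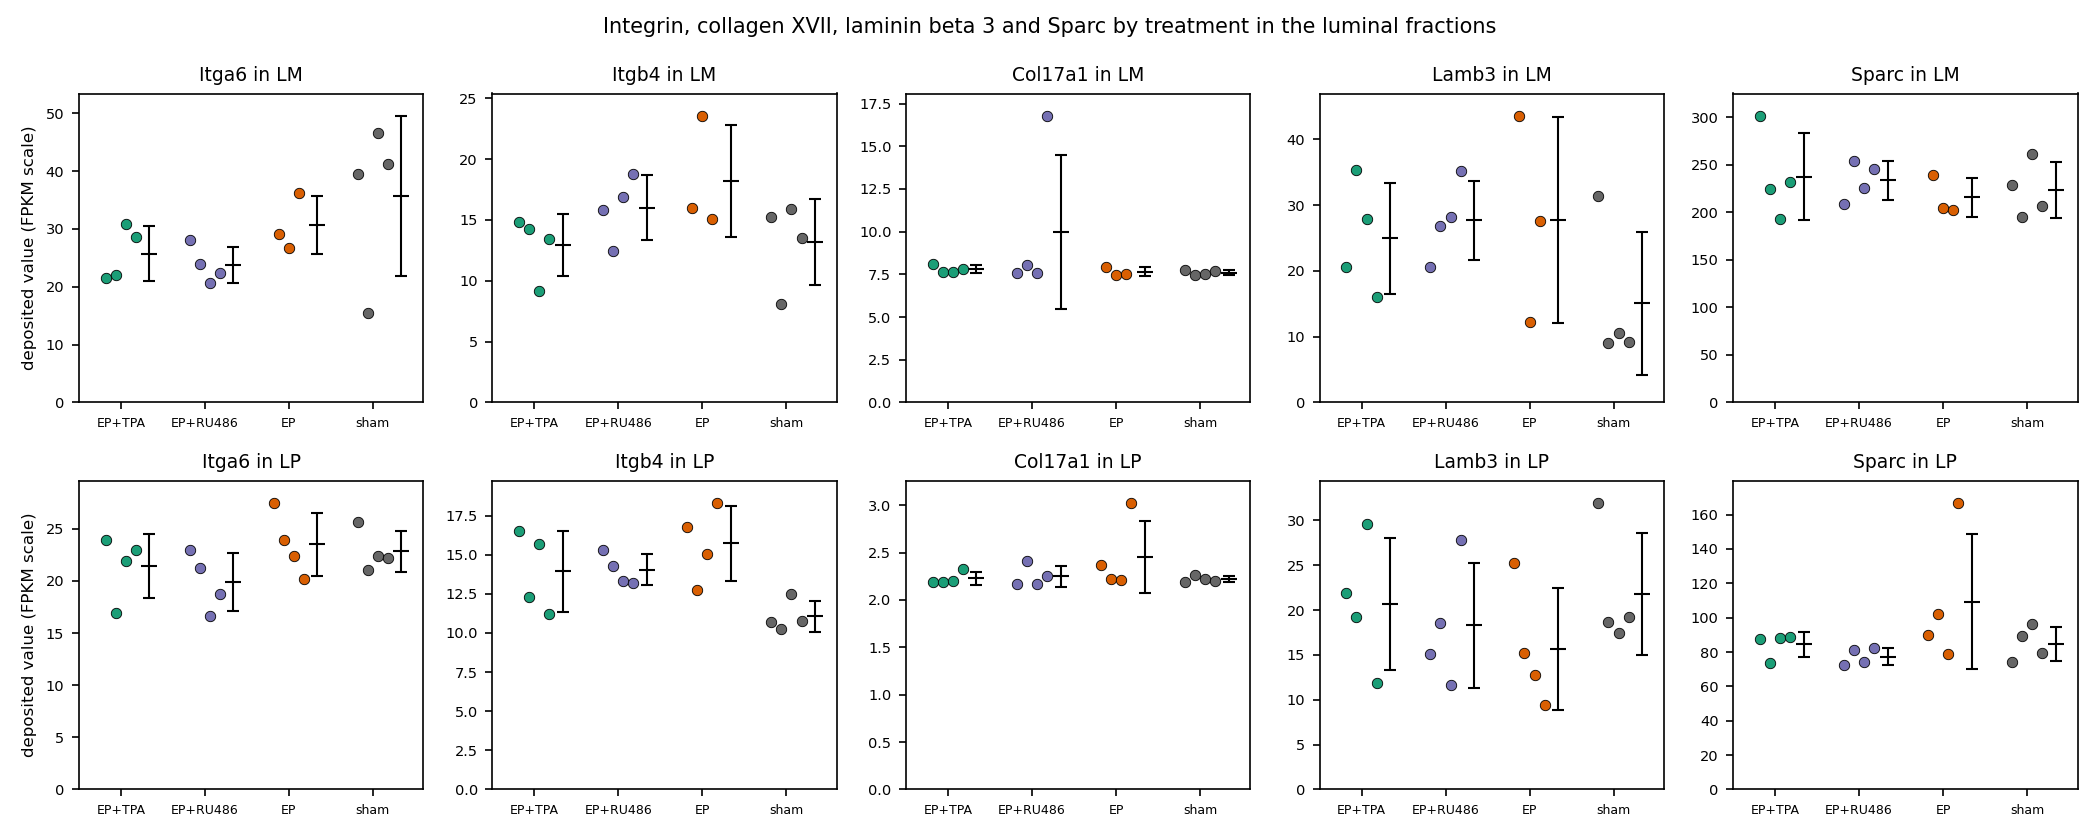
Deposited values on the FPKM scale (y axis) of Itga6, Itgb4, Col17a1, Lamb3 and Sparc in LM (upper row) and LP (lower row) by treatment (x axis); points are mice and the bar beside each group is its mean with SD. Single libraries stand out: 16.7 for Col17a1 in LM with EP+RU486, 31.4 for Lamb3 and 15.4 for Itga6 in LM sham, and 167 for Sparc in LP with EP.

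EP+TPA and EP+RU486, which hold related antagonists, were compared directly after the same 14 days, over 21 pairs of values (7 genes in 3 fractions), with doses that are not given in the sources used here. Limma called 0 genes, 0% of those tested, in each fraction, with 1593 (LM), 208 (LP) and 189 (MSC) at an unadjusted p under 0.05. Among the 7 genes the smallest unadjusted p was that of Lama3 in LM, 0.0492, which was 0.372 after adjustment. Lama3 there was at 1.90 ± 0.667 with EP+TPA and 3.87 ± 1.09 with EP+RU486 (SD, n = 4 each), a log2 fold of -0.80 with a 95% interval of -1.59 to -0.00. Other LM intervals were -0.45 to 0.27 for Trp63, -0.79 to 0.17 for Col17a1, -0.55 to 0.62 for Itga6, -0.94 to 0.22 for Itgb4, -1.12 to 0.62 for Lamb3 and -0.47 to 0.34 for Sparc. In LP the widest intervals were those of Lamb3, -0.42 to 0.85, and Trp63, -0.49 to 0.55. A p above the threshold does not show that the antagonists act alike, and in MSC the intervals reached from -2.75 to 2.71 for Col17a1.

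In MSC 0 of the 7 genes passed in any treatment comparison, where limma called 0% of 12007 genes in all 6 comparisons, with 189 to 836 at an unadjusted p under 0.05. Mice of the same group differed widely. Trp63 stood at 0, 6.99, 2.90 and 1.74 with EP+TPA, at 9.5, 0, 11 and 2.27 with EP+RU486, at 2.35, 5.12, 21.9 and 32.8 with EP and at 9.88, 0, 14.9 and 0.523 in sham. All 4 groups overlapped, although the values at and above 21.9 were both from EP mice. The log2 fold of EP against sham was 1.05 (SE 1.0, adjusted p 0.947). With libraries weighted by their spread it was 2.01 (adjusted p 0.0388), in a fit that called 510 genes higher and 575 lower.

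Col17a1 in MSC ran from 0 to 21.8 with EP+TPA, from 0 to 43.7 with EP+RU486, from 5.10 to 27.8 with EP and from 0.453 to 38.4 in sham. Lama3 ran from 0.802 to 4.79 with EP+TPA, from 0.0512 to 9.52 with EP+RU486, from 2.01 to 13.7 with EP and from 0.711 to 12.3 in sham. Lamb3 ran from 12 to 41.6 with EP+TPA, from 9.48 to 49.5 with EP+RU486, from 0.753 to 66.3 with EP and from 12.4 to 99.1 in sham. Itga6 varied less, from 22.7 to 41.7 with EP+TPA, from 19.5 to 49.3 with EP+RU486, from 28.0 to 67.2 with EP and from 27.0 to 56.0 in sham. Itgb4 ran from 9.67 to 19.9 with EP+TPA, from 10.2 to 29.0 with EP+RU486, from 9.11 to 18.3 with EP and from 9.26 to 25.1 in sham. With EP against sham these 5 genes had log2 folds of -1.04 (Lamb3) to 0.04 (Lama3), with adjusted p of 0.928 to 0.995.

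Sparc separated the MSC groups most. It stood at 82.4, 349, 12.7 and 235 with EP+TPA, at 456, 52.0, 473 and 188 with EP+RU486, at 985, 97.0, 657 and 569 with EP and at 840, 426, 682 and 740 in sham. As deposited, all 4 EP+TPA libraries lay below all 4 sham libraries, while EP+RU486 and EP overlapped sham. These libraries come from sets adjusted apart. For the fit, EP+TPA mouse 323 (349) was divided by a factor of 0.527, so the pooled separation does not describe the rescaled values. The log2 folds against sham were -2.42 with EP+TPA (SE 0.78), -1.94 with EP+RU486 (SE 0.79) and -1.12 with EP (SE 0.79). Their unadjusted p values were 0.00808, 0.0291 and 0.179, and the adjusted ones 1, 1 and 0.928. With library weights the EP fold was -1.89 (adjusted p 0.0416). Within the 10 MSC libraries adjusted without LP, Sparc was 12.7 to 235 in 3 EP+TPA mice and 426 to 740 in 3 sham mice; among the other 6 it was 349 in the EP+TPA mouse and 840 in the sham mouse.

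Markers of several cell types varied across the same MSC libraries. Summed myoepithelial markers ran from 140 to 3349 with EP+TPA, from 7.93 to 3758 with EP+RU486, from 336 to 4092 with EP and from 44.3 to 3504 in sham. The 3 libraries with Trp63 listed at 0 (EP+TPA mouse 312, EP+RU486 mouse 313 and sham mouse 310) had the lowest myoepithelial sums, 140, 7.93 and 44.3. EP mice 322 and 327, with the highest Trp63, had the highest sums, 3894 and 4092. Summed endothelial markers ran from 183 to 903 with EP+TPA, from 250 to 1114 with EP+RU486, from 0 to 1379 with EP and from 40.3 to 1063 in sham, and all 9 were listed at 0 in EP mouse 327. Fibroblast sums were 46.9 to 117 with EP+TPA, 35.1 to 97.0 with EP+RU486, 35.4 to 230 with EP and 95 to 246 in sham. The part of these cells in the MSC values was not tested.

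**Figure D4:**
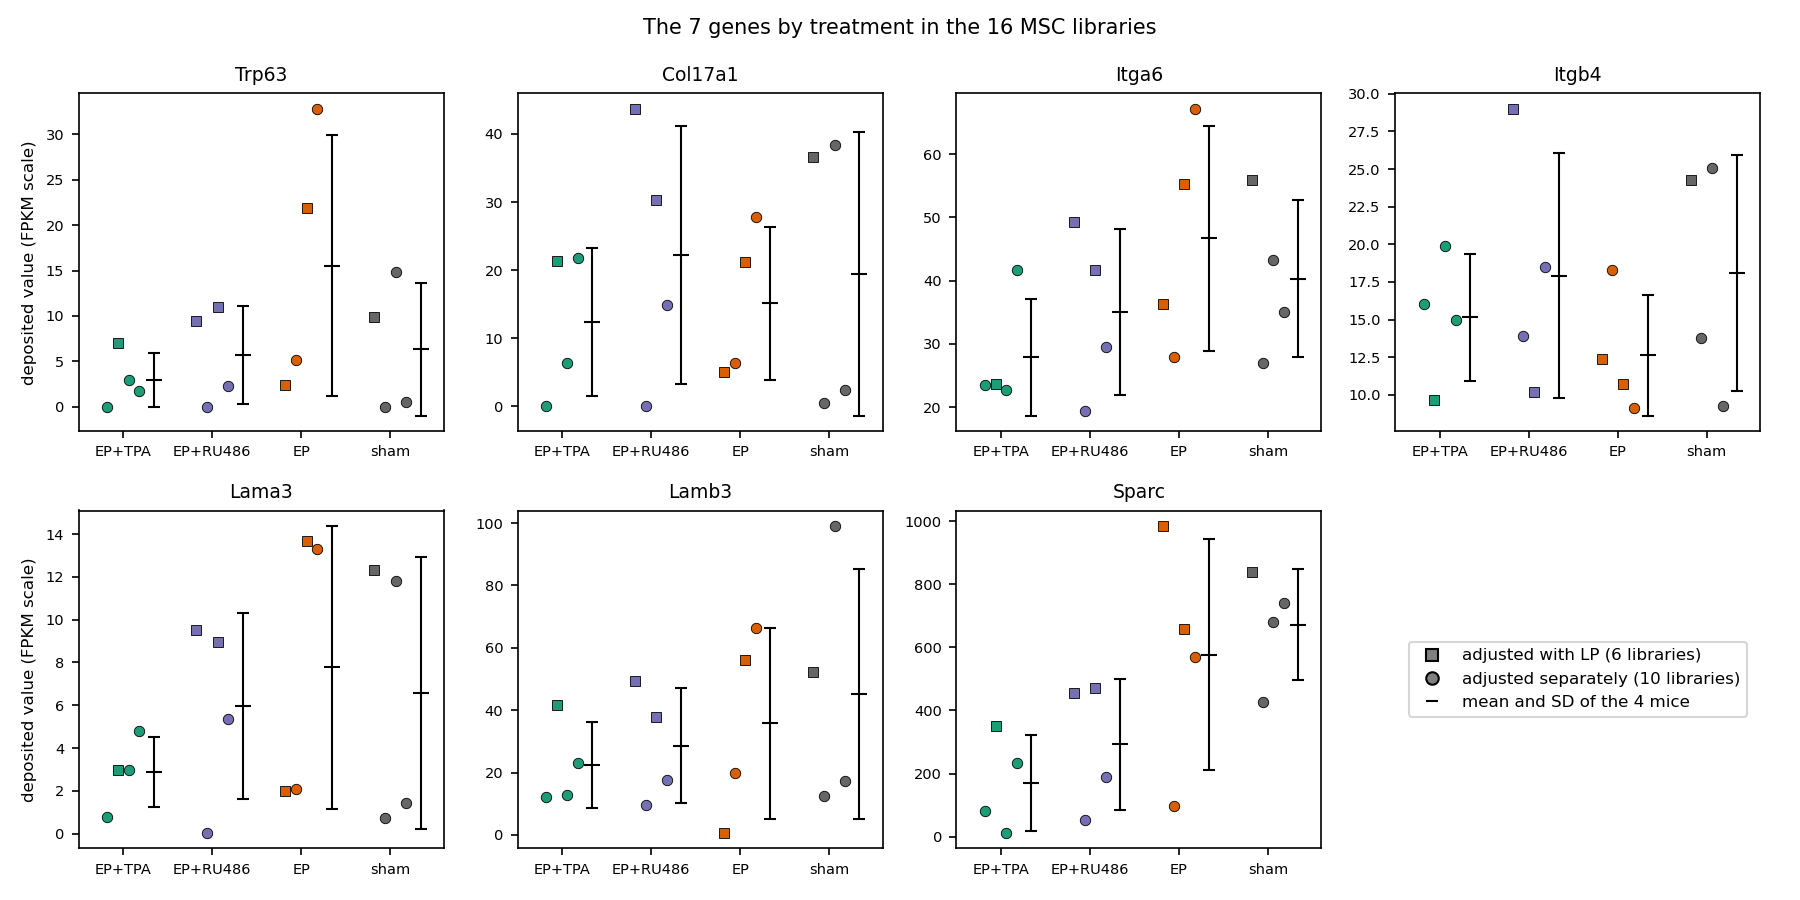
Deposited values on the FPKM scale (y axis) of the 7 genes in the 16 MSC libraries by treatment (x axis); squares are the 6 libraries adjusted together with LP, circles the other 10, and the bar beside each group is its mean with SD. Trp63 is at 0 in 1 library each of EP+TPA, EP+RU486 and sham. As deposited and pooled over the sets, all 4 EP+TPA libraries have less Sparc (349 or lower) than any sham library (426 or higher).

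Across the 16 MSC libraries, which differ in treatment and in cell makeup, Trp63, Col17a1, Itga6, Lama3 and Lamb3 moved together to differing degrees. Pearson correlations of log2 values, centred within the sets, were 0.82 between Trp63 and Col17a1, 0.87 between Trp63 and Lama3, 0.91 between Col17a1 and Lama3 and 0.73 between Lama3 and Lamb3. Itga6 had 0.82 with Lama3, 0.66 with Trp63 and 0.54 with Lamb3, the lowest value among the pairs of these genes. Itgb4 had -0.35 with Itga6 and -0.46 with Sparc, and between -0.13 and 0.17 with the other 4. Sparc had 0.57 with Itga6 and 0.14 to 0.24 with Trp63, Col17a1, Lama3 and Lamb3.

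Among the genes with a mean of at least 5 in MSC, 7148 in all, those most like each member over the 16 libraries were named. Nearest to Trp63 were Id4 (r 0.98), Lama1 (0.98) and Etv5 (0.96), and nearest to Lamb3 were Ptk7 (0.98), Col4a5 (0.97) and Pdlim3 (0.97). Lama3 had Flna (0.96), Cadm1 (0.95) and Grhl2 (0.94), and Col17a1 had Flna (0.95), the P-cadherin gene Cdh3 (0.91) and Lama3 itself (0.91). Sparc had fibulin 2 (Fbln2, 0.86) and the collagen IV chains Col4a2 (0.86) and Col4a1 (0.85). Itga6 had 9530068E07Rik, Lamb1 and Dync2li1 at 0.89, 0.89 and 0.88, and Itgb4 had Zmiz1, Mast2 and Zmiz2 at 0.86, 0.86 and 0.85.

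MSC and LP were compared in the 6 mice whose libraries had been adjusted together, with treatment in the fit. Of the 7 genes 6 were higher in MSC and 0 lower, where 22% of 11760 genes were higher and 16.7% lower (38.7% in either direction). The 6 include Trp63, which entered this test through MSC, so its call is a description. Itgb4, also among them, lost its call without rescaling and with its lowest value used as the constant or subtracted. The median log2 fold of all genes was 0.02. Without rescaling that median was -0.47 and higher genes made up 18.8% of calls, against 56.8% with it. The direction of all 7 genes was the same on both scales.

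Sparc had 840, 985, 456, 657, 349 and 473 in MSC of mice 305, 306, 308, 322, 323 and 324, against 89.3, 90.0, 81.2, 78.6, 73.6 and 74.0 in LP of the same mice. MSC lay above LP in 6 of 6 mice with no overlap between the fractions, and the log2 fold was 3.47 (SE 0.19, adjusted p 3.93e-06). Col17a1 had 36.7, 5.10, 43.7, 21.2, 21.3 and 30.4 in MSC, against 2.27, 2.37, 2.41, 2.21, 2.19 and 2.17 in LP. It too did not overlap, with a log2 fold of 3.22 (SE 0.38, adjusted p 0.000197).

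Trp63 had 9.88, 2.35, 9.5, 21.9, 6.99 and 11 in MSC, against 0.702, 2.43, 0.819, 1.25, 0.765 and 0.739 in LP. It was higher in MSC in 5 of 6 mice; in mouse 306, treated with EP, the values were alike. The log2 fold was 2.66 (SE 0.43, adjusted p 0.00125). Only 2 of the 6 LP libraries reached a value of 1, so Trp63 entered this test through MSC, and its call is a description. Lama3 had 12.3, 2.01, 9.52, 13.7, 2.97 and 8.94 in MSC, against 2.51, 1.48, 1.73, 1.18, 1.90 and 1.65 in LP, higher in 6 of 6 mice by a log2 fold of 2.03 (SE 0.35, adjusted p 0.00179). Itga6 was also higher in 6 of 6 mice, at 43.7 ± 12.5 in MSC and 21.0 ± 3.98 in LP (SD, n = 6 each), a log2 fold of 1.59 (SE 0.14, adjusted p 4.05e-05). These calls of 5 genes held in all 13 alternative fits.

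The 2 remaining genes depended on the processing or on 1 mouse. Itgb4 had 24.3, 12.4, 29.0, 10.7, 9.67 and 10.2 in MSC, against 10.3, 16.8, 14.3, 15.1, 12.3 and 13.3 in LP. As deposited it was higher in MSC only in mice 305 and 308, whereas after rescaling its log2 fold was 0.68 (SE 0.20, adjusted p 0.0221). Without rescaling the fold was 0.10 (adjusted p 0.765), and without mouse 305 or mouse 308 the adjusted p was 0.0691 and 0.0558. With the lowest value of the set used as the constant the fold was 0.22 (adjusted p 0.548). With that value subtracted it was 0.15 (adjusted p 0.872). Lamb3 had 52.3, 0.753, 49.5, 56.1, 41.6 and 37.9 in MSC, against 18.6, 25.2, 18.6, 12.7, 19.2 and 11.6 in LP, a log2 fold of 1.19 (SE 0.78, adjusted p 0.255). Mouse 306 alone had less Lamb3 in MSC, and without it the fold was 2.11 (adjusted p 0.000119).

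**Figure D5:**
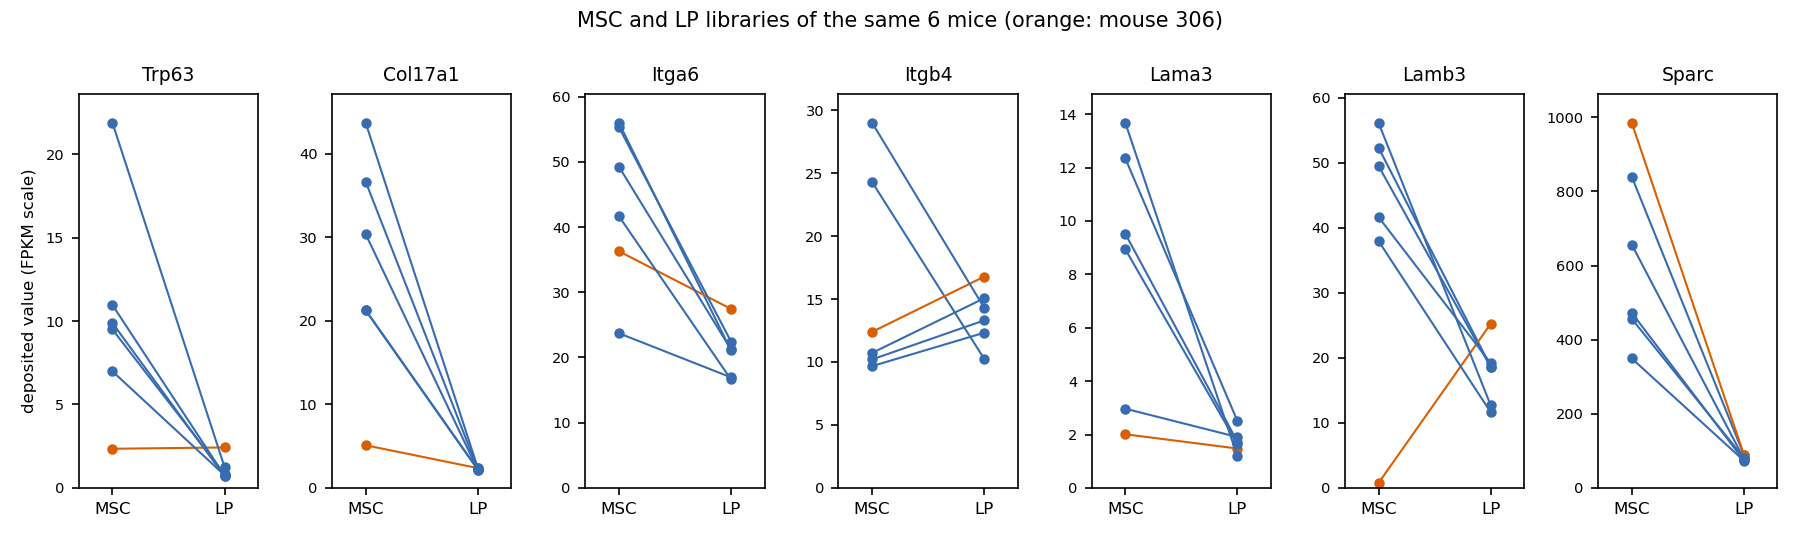
Deposited values on the FPKM scale (y axis) of the 7 genes in MSC and LP (x axis) of the same 6 mice; lines join the fractions of a mouse and mouse 306 is orange. Sparc and Col17a1 are higher in MSC than in LP in all 6 mice without overlap, Lamb3 is higher in 5 mice and not in mouse 306, and Itgb4 is higher only in mice 305 and 308.

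The labelled fractions were checked against markers in these mice. All 8 myoepithelial contractile markers were higher in MSC, with a median log2 fold of 3.91, against 0.02 for all genes, and 10 of 14 luminal markers were lower and 1 higher, with a median of -1.27. Summed myoepithelial markers were 553 to 3894 in MSC and 167 to 192 in LP. Other cell types were also higher in MSC: 8 of 9 endothelial, 4 of 6 tested pericyte, 4 of 8 tested fibroblast and 2 of 5 tested adipocyte markers, with 1 fibroblast marker lower. Endothelial sums were 164 to 1379 in MSC and 129 to 264 in LP, and adipocyte sums 432 to 7711 and 342 to 359. Mouse 306 had the highest endothelial (1379) and adipocyte (7711) and the lowest myoepithelial sum (553) of the 6 MSC libraries, together with the highest Sparc and the lowest Trp63, Col17a1, Lama3 and Lamb3. The part of these cells in the MSC values was not tested.

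Counts of related genes are read against the 22% of all genes higher and 16.7% lower in MSC. Of 15 adhesion partners 11 were higher and 2 lower in MSC, with a median log2 fold of 1.04; the linker genes Dst, Fermt2 and Ilk had folds of 1.90, 1.25 and 1.28 (adjusted p 6.21e-05, 0.000242 and 0.000339). Of 19 tested basement membrane genes 13 were higher and 0 lower, with a median of 1.32, led by Col18a1 (2.83), Col4a2 (3.58) and Col4a1 (3.45). Of 11 tested genes linked to p63, 9 were higher and 1 lower, with a median of 2.08; the Notch ligand gene Jag2 had 3.11 and the basal keratins Krt5 and Krt14 4.18 and 4.01. Of 12 matricellular genes, the functional class of Sparc, 5 were higher and 1 lower, with a median of 0.50, among them the collagen chaperone Serpinh1 (1.57), Sparcl1 (2.42) and CTGF (2.37). Their summed deposited level was lower in MSC in all 6 mice, at 590 to 1291 in MSC and 927 to 3131 in LP.

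The p63-linked genes went in both directions under EP, beside shares of all genes of 19.8% called in LM and 32.7% in LP. In LM, 2 of 10 tested rose with EP against sham and 1 fell, with a median log2 fold of -0.15 against -0.02 for all genes. Cdh3 rose by 1.05 (adjusted p 0.00854, SE 0.24), the keratin gene Krt15 by 0.73 (0.0103, SE 0.18), and the plakophilin gene Pkp1 fell by 1.41 (0.0232, SE 0.40). In LP, 2 of 10 rose and 2 fell, with a median of -0.03 against 0.02 for all genes: Cdh3 rose by 1.11 and Krt15 by 0.63 (adjusted p 0.00869 and 0.0295), and Sfn was among those that fell, by 1.84 (adjusted p 0.00127). Against EP, Cdh3 and Krt15 fell with both antagonists in both luminal fractions, Cdh3 by 0.94 and 0.77 in LM with EP+TPA and EP+RU486 and by 1.18 and 1.16 in LP, and Krt15 by 0.68 and 0.91 in LM and 0.69 and 0.74 in LP, with adjusted p of 0.00409 to 0.0423. Perp, a desmosome gene, also fell in LP by 0.71 with EP+TPA and 0.72 with EP+RU486 (adjusted p 0.0209 and 0.0183). In LM it fell with EP+RU486 against EP (log2 fold -1.88, adjusted p 0.0106).

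Adhesion partners were called in both directions, beside shares of all genes of 10.3% higher and 9.52% lower in LM and 17.3% and 15.4% in LP. With EP against sham in LM 2 of 15 rose and 3 fell, with a median log2 fold of -0.01 against -0.02 for all genes. The integrin-linked kinase gene Ilk rose by 1.44 (SE 0.18, adjusted p 0.00015), and the hemidesmosome linker Plec and the Ilk partner Parva fell by 0.95 and 0.78 (adjusted p 0.00812 and 0.0253). In LP, 2 of 15 rose and 1 fell, with a median of 0.06 against 0.02: Ilk rose by 0.61 and the integrin gene Itgb6 fell by 1.12 (adjusted p 0.000245 and 0.000268). Itgb6 was higher than EP with EP+TPA by 1.03 and with EP+RU486 by 0.87 (adjusted p 0.00103 and 0.0033). The collagen receptor gene Itga2 was higher than EP with EP+RU486 in LM by 1.73 (adjusted p 0.0213) and with EP+TPA in LP by 0.89 (adjusted p 0.0252). Ilk was above sham in LM also with EP+TPA (1.46) and EP+RU486 (1.56).

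Of the other basement membrane genes, 6 of 18 rose with EP against sham and 1 fell in LP, with a median log2 fold of 0.40 against 0.02 for all genes, of which 32.7% were called. In LM 1 of 19 rose and 0 fell, with a median of 0.05 against -0.02 for all genes, of which 19.8% were called. The laminin chain gene Lamc1 rose in LM by 1.52 (SE 0.30, adjusted p 0.00334) and in LP by 1.35 (SE 0.32, adjusted p 0.00424), where Lama5 rose by 1.23 and the laminin receptor gene Bcam fell by 0.51 (adjusted p 0.0055 and 0.0142). Lamc1 fell against EP in LM by 1.35 with EP+TPA and 1.29 with EP+RU486 (adjusted p 0.0193 and 0.00918). In LP the collagen IV chains Col4a5 and Col4a6 and Bcam were above EP with EP+TPA by 1.54, 1.96 and 1.22 and with EP+RU486 by 1.55, 2.02 and 1.35, with adjusted p of 2.14e-05 to 0.000125. All 3 were also above sham with both antagonists in LP, by 0.71 to 1.42.

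Of the matricellular genes other than Sparc, 1 of 12 rose with EP against sham and 2 fell in LM, with a median log2 fold of -0.10 against -0.02 for all genes, and 1 rose and 3 fell in LP, with a median of 0.09 against 0.02. These counts lay near the shares of all genes called, 19.8% in LM and 32.7% in LP. Smoc2, a relative of Sparc, fell by 1.54 in LM and 1.33 in LP (adjusted p 0.00994 and 0.000337). Osteopontin (Spp1) was listed at 0 in all 3 EP libraries of LM and stood at 207 to 578 in LM sham, and it fell in LP by 4.17 (adjusted p 4.17e-05), while thrombospondin 1 (Thbs1) rose in LM by 2.05 (adjusted p 0.0196). Tenascin C (Tnc) was above EP with EP+TPA by 3.34 in LM and 2.50 in LP, and with EP+RU486 by 4.54 and 2.96 (adjusted p 0.00175 to 0.0451). Against EP, 2 of 12 rose and 0 fell with EP+TPA in LM and 5 rose and 0 fell with EP+RU486, with medians of 0.66 and 0.84 against -0.01 and 0.01 for all genes, of which 4.62% and 18.6% were called.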

How the data were processed

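The authors deposited 1 table of 47 libraries from 20 mice, described in the labels as counts. Values on the FPKM scale, not whole, were what the authors deposited, after an adjustment of each gene. Per the labels' protocols, sorted cells were sequenced as 75-base pairs from SMART-Seq v4 and Nextera XT libraries. The submitters' processing notes name STAR, Cufflinks, DESeq2 and mm9, without versions or order. From the values, genes had been adjusted within 3 sets of 15, 22 and 10 libraries: any 2 libraries of 1 set held 1382 to 6488 equal values above 0, and libraries of different sets held 0. Library totals ran from 217977 to 358375; the read depth is unknown, and the number of mice limits the precision.

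Of 22007 symbols, 27 resembling dates were left out. Libraries were rescaled within sets by median-ratio factors of 0.527 to 1.30, applied above the lowest value that 2 or more libraries shared. Where no lowest value was shared, the constant was multiplied too. In LM this applied to every member, Col17a1, Trp63 and Sparc included. In LP and MSC it applied to Itga6, Itgb4, Lama3, Lamb3 and Sparc, but not to Trp63 and Col17a1. A gene was tested with at least 3 libraries at a value of 1 or more. Limma 3.58.1 (R 4.3.3; trend and robust) was run on log2(value + 1), with the 4 treatments of a fraction in 1 fit, a set term in MSC and treatment as covariate for MSC minus LP. In place of the count tests that deposited counts would have needed, this test fits the unit found. Scripts were tested on simulated data. MSC and LP numbers pair libraries because they name the same mouse; own-mouse correlations of deviations ran from -0.0141 to 0.349.

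The members and gene lists were chosen with earlier results of these data known. All 7 members were named, and of each list up to 3 genes per comparison past the threshold with the smallest adjusted p, plus Krt15 in LP and Krt14, Krt5 and Acta2 by library, chosen after their values were seen; some genes of the lists are not reported here. Likeness took the 3 genes with the highest correlation. Promoters are RefSeq's (3 of the 7 members shown). Python 3.11.15, pandas 2.3.3, numpy 2.4.6 and matplotlib 3.10.9 were used. Alternatives were the rescaling, its constant, the pseudocount, the filter, library weights, fits of 2 groups, the set term, each mouse left out and a mouse block.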

Additional observations from a re-analysis of the deposited data

Results flagged for a closer look

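Within the groups of 4 to 10 libraries, 7 of 77 had 1 library far from the others by Dixon's criterion, which chance alone meets in about 1 in 20 groups. In 6 of them the library was above its group: Col17a1 at 16.7 in LM of EP+RU486 mouse 333, Itga6 at 41.7 in MSC of EP+TPA mouse 336, Lamb3 at 31.4 in LM and 31.9 in LP of sham mouse 301, and, in LP with EP+TPA, Trp63 at 0.909 in mouse 312 and Col17a1 at 2.33 in mouse 336. In LP with EP+TPA, Sparc at 73.6 in mouse 323 was below its group. The criterion was applied to deposited values, and the MSC groups joined libraries of different sets. After rescaling, Itga6 in MSC with EP+TPA was 43.3 in mouse 336 and 45.0 in mouse 323, so mouse 336 did not stand apart.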

How the results depend on the processing

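No member changed sign past the threshold under any alternative run, and Lama3 in LP (EP minus sham) and Trp63, Col17a1, Itga6, Lama3 and Sparc (MSC minus LP) kept their calls in all. Counts of members changed moved as follows, and the cause was not tested. Those for LP and for MSC minus LP can include Trp63. It entered these tests through EP and MSC libraries, respectively, so its calls there are a description. With library weights they were 4 (LM EP minus sham), 2 (LM EP+TPA minus EP), 3 (LM EP+RU486 minus EP), 2 (LM EP+TPA minus sham), 2 (LM EP+RU486 minus sham), 1 (LP EP+TPA minus EP) and 2 (MSC EP minus sham). With only the groups compared they were 1 (LM EP minus sham), 0 (LM EP+TPA minus sham), 1 (LP EP minus sham) and 0 (LP EP+RU486 minus EP). Without rescaling they were 1 (LM EP+TPA minus EP), 2 (LM EP+RU486 minus EP) and 1 (LP EP+TPA minus EP). Without the filter they were 0 for LM EP+RU486 minus EP, LM EP+TPA minus sham and LP EP+RU486 minus EP, and with a pseudocount of 0.1 the count was 1 for LP EP+TPA minus EP. With each gene's lowest value subtracted, an alternative added after seeing the data as was the lowest value used as constant, they were 1 (LM EP+TPA minus EP), 2 (LM EP+RU486 minus EP), 2 (LM EP+TPA minus sham), 1 (LM EP+RU486 minus sham) and 1 (LP EP+TPA minus EP). Smaller moves were 3 for LP EP minus sham, and 5 for MSC minus LP, without rescaling, with the lowest value as constant and with it subtracted, and 7 for MSC minus LP with library weights. With 1 mouse left out, counts ran from 1 to 3 (LM EP minus sham), 0 to 1 (LM EP+RU486 minus EP), 0 to 2 (LM EP+TPA minus sham), 0 to 1 (LM EP+RU486 minus sham), 1 to 3 (LP EP minus sham), 0 to 1 (LP EP+TPA minus EP), 0 to 1 (LP EP+RU486 minus EP) and 5 to 7 (MSC minus LP). With the replicate block of mouse, 6 members were again higher in MSC than in LP, Itgb4 with an adjusted p of 0.0231, and the block changed no member's call. No paired analysis was possible because the treatment groups share no mice. The constants in the values and the unknown depth limit what folds of low genes can show.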
